A study of Canis lupus familiaris with 6 samples.

Results

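Nuclear factor κB (NF-κB) subunits, their inhibitors and their feedback genes were followed in RasV12-transformed canine epithelial cells that were cultured alone or surrounded by normal cells. The genes were RELA, RELB, REL, NFKB1 and NFKB2 (subunits), NFKBIA, NFKBIE, TNFAIP3 and TNIP1 (inhibitors and feedback genes) and IKBKE (an inducible kinase of the pathway). All non-control probes that the array's own annotation gives one of these names were taken, whatever their values, which gave 15 of 43603 probes and 8 of the 10 genes. NFKBIE and IKBKE had no probe of that name and were not analysed here.

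The cells were MDCK-pTR GFP-RasV12 cells, a line derived from Madin-Darby canine kidney (MDCK) epithelium in which tetracycline switches on GFP-tagged oncogenic RasV12. Both groups received tetracycline for 24 h on collagen-coated dishes, and GFP-positive cells were then sorted and their RNA extracted. One group of 3 samples came from RasV12 cells cultured alone and the other group of 3 samples from RasV12 cells in mixed culture with normal MDCK cells. The protocol gives 10 normal cells to 1 RasV12 cell, but mixed replicate 2 is labelled as 100 to 1. In the labels, the extraction step is described for cells with a β-catenin mutant in addition, which neither the sample titles nor the study's description of this experiment mentions. Each sample was hybridised to 1 single-colour Agilent canine array, and the study asked whether NF-κB activation also occurs in RasV12 cells without Wnt activation.

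NF-κB is a family of dimeric transcription factors that rest in the cytoplasm, held by inhibitor of κB (IκB) proteins. Signals from cytokine receptors or sensors of foreign nucleic acid activate the IκB kinase (IKK) complex, which marks IκB for degradation, so that the dimer enters the nucleus. Several of its targets are its own subunits and inhibitors, among them NFKBIA and TNFAIP3, so that the transcript levels of these genes are often read as a trace of past activity. The activity itself depends on where the proteins are and was not measured on the arrays.

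The values below are log2 intensities minus the 75th percentile of the array, so that 0 is the 75th percentile and a difference of 1 is a doubling. The 75th percentile lay between 592 and 700 units of intensity, and the share of probes well above background ranged from 60.8% to 66.4%. Cells alone and mixed cultures were hybridised on separate slides, 1 for each group, so an effect of the slide cannot be told apart from that of the culture. Testing was limited to 26535 probes, each well above background throughout one group or both. With limma's moderated test (two-sided, Benjamini-Hochberg adjustment over all of them), 11.2% of these probes differed between the cultures at an adjusted p under 0.05. This number depended on single arrays, and alone replicate 1 stood apart in that leaving it out raised the calls from 2978 to 7335. Leaving out alone replicate 2 or 3, or mixed replicate 2 or 3, cut the calls to 24, 7, 9 and 12. A call lost in those fits is thus not particular to a gene. Values with and without alone replicate 1 are given where the call of a member probe rests on it.

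Of the 10 markers of kidney epithelium with a probe, 10 were well above background on all 6 arrays, with summed levels of 705 to 866 times the 75th percentile in cells alone and 748 to 874 in mixed culture. In the marker lists of other cell types, the genes not well above background on any array were PTPRC and LYZ of leukocytes, CDH5 and TEK of endothelium, and COL3A1 and PDGFRA of fibroblasts. Some genes of these lists were measurable, 5 of 8 for fibroblasts, 4 of 9 for leukocytes and 4 of 6 for endothelium, and limma called 0 of them. Levels on the same scale were summed over all genes of each list with a probe, 1 probe each, measurable or not. For fibroblasts the sums were 1.76 to 1.93 in cells alone and 2.07 to 2.30 in mixed culture. They were 1.87 to 2.0002 and 2.005 to 2.15 for leukocytes, and 5.16 to 7.42 and 5.61 to 7.52 for endothelium. Of 11 tested genes that Ras-MAPK signalling is known to raise, read at 1 probe each, limma called 4 lower in mixed culture and 0 higher, where 5.29% of all tested genes were called lower. By sign 8 differences were below 0 and 3 above, with a median log2 difference of -0.52 and summed levels of 114 to 118 in cells alone and 92.9 to 111 in mixed culture. Normal MDCK cells that escaped the sort would carry less Ras output. The part of such cells in the results below was not tested, and in such bulk samples fewer cells of a type and less RNA per cell cannot be told apart.

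No NF-κB gene passed the test as higher in mixed culture, and 1 passed it as lower, TNIP1, at 1 of its 3 probes and with a ratio of 0.793. Of the 15 probes, 14 could be tested, and 13 were well above background on all 6 arrays. In mixed culture 0 of the 14 were called higher (limma), where 5.5% of all tested probes were, and 1 was called lower, where 5.72% were. At an unadjusted p under 0.05 in limma's test, 2 of the 14 were higher and 3 lower, where 15.5% and 15.9% of all tested probes were. The t-test that the study's methods name gave 0 calls among the members after adjustment, and 1 higher and 2 lower unadjusted, where 12.9% and 14.6% of all tested probes were. The 14 differences ran from -0.54 to 0.32, with a median of -0.11 against -0.004 over all tested probes, and their median SD between replicates, 0.13, matched that of all probes (0.13). At 5 of the 14 probes the mixed arrays were all on one side of the arrays of cells alone, 2 above and 3 below. Over all tested probes this share was 37.2%, so that of the members is near the background.

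**Figure D1:**
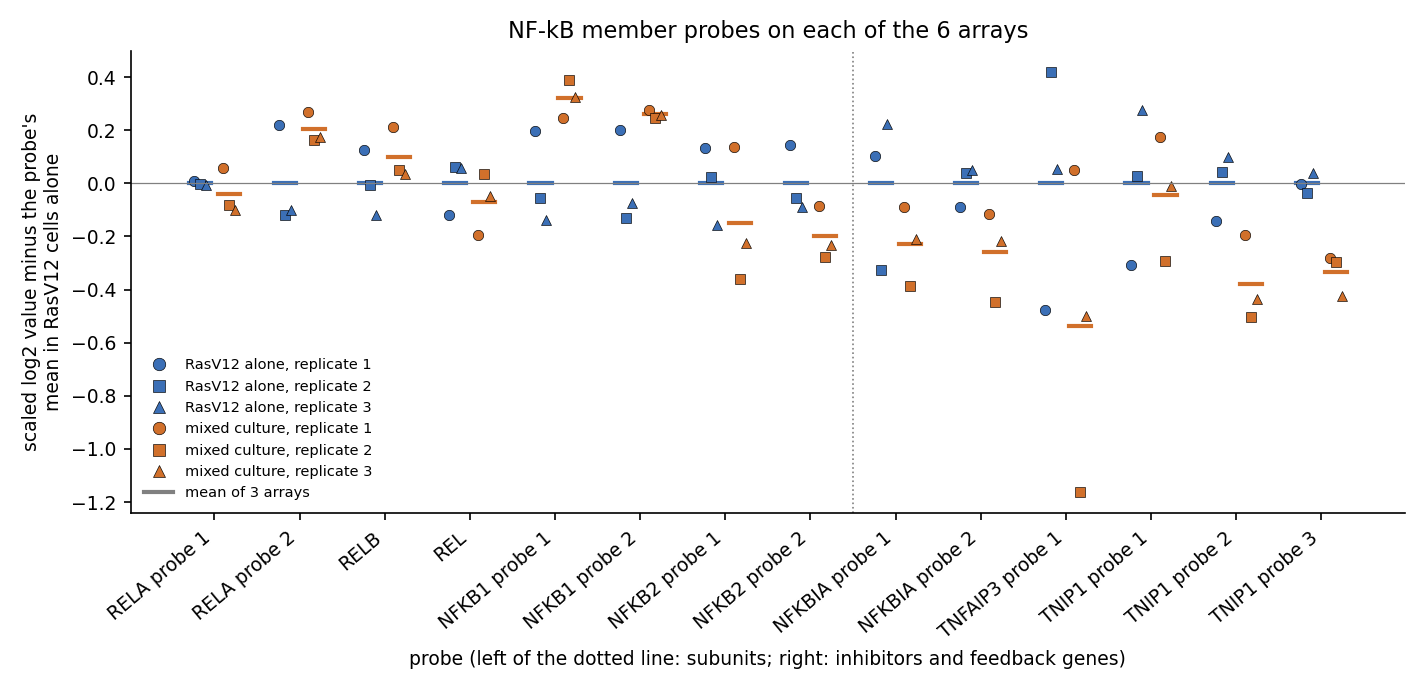
Scaled log2 value of each of the 14 tested probes (horizontal axis) on each array, minus that probe's mean in RasV12 cells alone (vertical axis). Circles, squares and triangles are replicates 1, 2 and 3, blue for RasV12 cells alone and orange for mixed culture, and bars are means of 3 arrays. The orange points lie above all blue ones for both NFKB1 probes and below all blue ones for NFKBIA probe 2 and TNIP1 probes 2 and 3, and the widest spread is that of TNFAIP3 probe 1.

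RELA encodes p65, the subunit that carries most of the activating function of the classical dimer. Its probes are shown because they gave differences of opposite sign. Both are 60 bases long and match the transcript ENSCAFT00000021166 on the plus strand of chromosome 18 (canFam3), probe 1 at chr18:51552609-51552668 and probe 2 at chr18:51557987-51558046. The files name the transcript of a probe and not the exon.
RELA probe 1: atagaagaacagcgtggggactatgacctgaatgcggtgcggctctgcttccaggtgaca
RELA probe 2: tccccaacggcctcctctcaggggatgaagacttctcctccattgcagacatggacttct

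RELA probe 1 read -2.19, -2.20 and -2.20 in RasV12 cells alone (replicates 1 to 3) and -2.14, -2.28 and -2.30 in mixed culture. The groups overlapped, with mixed replicate 1 above the cells alone and the other two below them. The log2 difference was -0.04 (95% interval -0.22 to 0.13, limma adjusted p = 0.737). RELA probe 2 read 0.80, 0.46 and 0.48 in cells alone and 0.85, 0.75 and 0.76 in mixed culture. Alone replicate 1 lay among the mixed arrays, well above the other two arrays of cells alone. The difference was 0.20 (95% interval -0.06 to 0.46, limma adjusted p = 0.253). Without alone replicate 1 it was 0.31, which was called (limma adjusted p = 0.0263), in a fit that called 3497 of all 27757 tested probes higher. Under scaling to the spike-in controls RELA probe 2 differed by 0.04 (limma adjusted p = 0.802). That scaling takes the controls added to each sample as equal, and it puts the median of all tested probes at -0.165.

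RELB, the subunit of the alternative pathway that pairs with the product of NFKB2, has 1 probe at chr1:110437345-110437404 on the minus strand. It read -0.91, -1.04 and -1.15 in cells alone and -0.82, -0.98 and -0.997 in mixed culture. The groups overlapped, and in both of them replicate 1 was the highest. The log2 difference was 0.10 (95% interval -0.13 to 0.32, limma adjusted p = 0.516). REL, which encodes c-Rel, best known from lymphocytes, has 1 probe at chr10:61023584-61023643 on the plus strand. It read -2.30, -2.12 and -2.13 in cells alone and -2.38, -2.15 and -2.23 in mixed culture. The groups overlapped, and in both of them replicate 1 was the lowest. The difference was -0.07 (95% interval -0.29 to 0.15, limma adjusted p = 0.649).

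NFKB1 encodes p105, the precursor that is processed to p50, the partner of p65, and is itself a target of NF-κB. It was the subunit whose probes lay furthest above 0, and both are shown for that reason. They match NM_001003344 on the plus strand of chromosome 32, probe 1 at chr32:23988914-23988973 and probe 2 at chr32:24040545-24040604. Of probe 2 the first 30 of the 60 bases are printed.
NFKB1 probe 1: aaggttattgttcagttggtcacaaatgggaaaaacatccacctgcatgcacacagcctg
NFKB1 probe 2: caatcagtgctgaaaatggtcttttccccc

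NFKB1 probe 1 read -2.21, -2.47 and -2.55 in cells alone and -2.16, -2.02 and -2.08 in mixed culture. All 3 mixed arrays were above all 3 arrays of cells alone, though mixed replicate 1 exceeded alone replicate 1 by only 0.05. The log2 difference was 0.32 (SE 0.105, 95% interval 0.07 to 0.57), a ratio of 1.25, with an adjusted p of 0.0960 in limma's test. NFKB1 probe 2 read 2.66, 2.33 and 2.38 in cells alone and 2.73, 2.70 and 2.71 in mixed culture. Again the groups did not overlap, the mixed arrays were close together, and alone replicate 1 lay near them. The difference was 0.26 (SE 0.101, 95% interval 0.02 to 0.50), with an adjusted p of 0.137 (limma). Neither probe was called. Without alone replicate 1 both were, at 0.42 (limma adjusted p = 0.0174) and 0.36 (limma adjusted p = 0.0149). That fit called 3497 of all 27757 tested probes higher. Under spike-in scaling the differences shrank to 0.16 (limma adjusted p = 0.361) and 0.10 (limma adjusted p = 0.523). For each probe the exact permutation test over the 6 arrays gives p = 0.1 (two-sided), the smallest that 3 arrays against 3 allow.

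The replicate numbers are shared by the groups, and arrays of the same number are called pairs here. By the check given with the processing, it is uncertain whether the numbers pair the arrays. Within pairs, mixed minus alone, NFKB1 probe 1 differed by 0.05, 0.45 and 0.47 in pairs 1, 2 and 3, and NFKB1 probe 2 by 0.07, 0.38 and 0.33. Pair 1 thus gave the smallest difference at both probes. The same held for RELA probe 2, with 0.05, 0.28 and 0.28. RELA probe 2, RELB and both NFKB1 probes were higher in mixed culture in 3 of 3 pairs. REL, NFKB2 probe 2, both NFKBIA probes, and TNIP1 probes 2 and 3 were lower in 3 of 3 pairs. The other tested member probes went both ways. The share of all tested probes with 1 direction in 3 of 3 pairs was not computed, so this is not read as a trait of the members.

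NFKB2 encodes p100, which holds RelB in the cytoplasm until it is processed to p52. Probe 1, annotated to ENSCAFT00000048739, has 60 bases that span 169 bases of the genome, at chr28:14906386-14906554. It read -2.76, -2.87 and -3.05 in cells alone and -2.76, -3.25 and -3.12 in mixed culture. The groups overlapped through mixed replicate 1, and the difference was -0.15 (95% interval -0.50 to 0.20, limma adjusted p = 0.528). Probe 2, annotated to ENSCAFT00000016131, lies at chr28:14909658-14909717 and read 0.47, 0.27 and 0.24 in cells alone and 0.24, 0.05 and 0.09 in mixed culture. The highest mixed array was level with the lowest array of cells alone. The difference was -0.20 (95% interval -0.43 to 0.03, limma adjusted p = 0.208). Among the 5 subunits, with 1 probe per gene (the brightest tested one), 0 were called in either direction by limma and the median difference was 0.10.

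**Figure D2:**
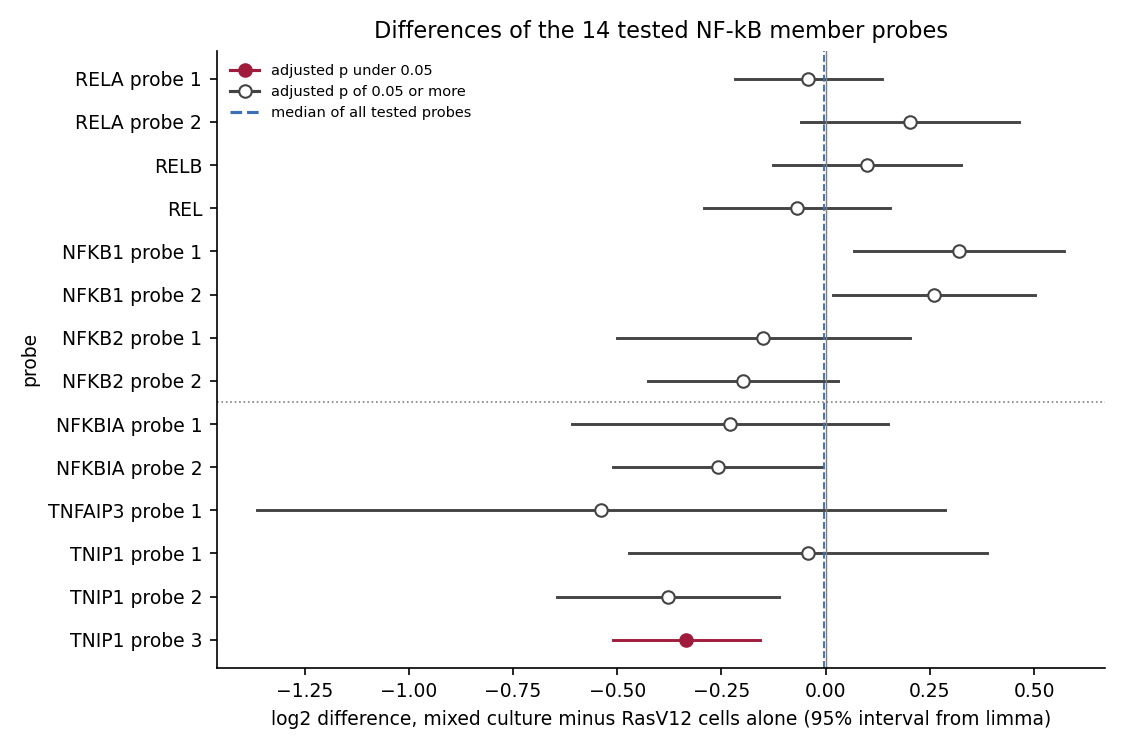
Log2 difference, mixed culture minus RasV12 cells alone (horizontal axis), of the 14 tested probes (vertical axis), with subunits above and inhibitors and feedback genes below the dotted line. Bars are 95% intervals from limma, the filled red point is the 1 probe with an adjusted p under 0.05 (TNIP1 probe 3), and the dashed line is the median of all tested probes, -0.004. The 6 tested probes of inhibitors and feedback genes belong to 3 genes and lie below 0, from -0.54 (TNFAIP3 probe 1) to -0.04 (TNIP1 probe 1). TNFAIP3 probe 1 was dim, entered the test through the arrays of cells alone and was at -0.09 under normexp. TNIP1 probe 1 changed sign in 3 other settings.

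NFKBIA encodes IκBα, the inhibitor that is degraded on activation and then made again under the control of NF-κB. Its probes are shown because it is the member most directly tied to the pathway's output. Both match ENSCAFT00000021292 on the minus strand of chromosome 8, probe 1 at chr8:14103181-14103240 and probe 2 at chr8:14101519-14101578.
NFKBIA probe 1: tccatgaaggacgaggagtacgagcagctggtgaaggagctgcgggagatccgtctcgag
NFKBIA probe 2: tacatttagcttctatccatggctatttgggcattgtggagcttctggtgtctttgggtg

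NFKBIA probe 1 read -1.003, -1.43 and -0.88 in cells alone and -1.20, -1.49 and -1.32 in mixed culture. The groups overlapped, and replicate 2 was the lowest in both. The difference was -0.23 (95% interval -0.61 to 0.15, limma adjusted p = 0.367). NFKBIA probe 2 read 1.54, 1.67 and 1.68 in cells alone and 1.52, 1.19 and 1.41 in mixed culture. The groups did not overlap, but mixed replicate 1 lay 0.02 under alone replicate 1. The difference was -0.26 (SE 0.104, 95% interval -0.51 to -0.01), a ratio of 0.835, with an adjusted p of 0.147 (limma), short of the threshold. Leaving out single arrays gave -0.39 to -0.12 at probe 1, the ends being without alone replicate 2 and without alone replicate 3, and -0.33 to -0.17 at probe 2, the smallest without mixed replicate 2. Under normexp probe 1 was at -0.13, and under spike-in scaling the probes were at -0.39 and -0.42. Neither probe was called in any of these settings. The interval of probe 2 lies below 0 and that of probe 1 spans 0.

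TNFAIP3 encodes A20, an enzyme that edits ubiquitin chains and ends NF-κB signalling, and is one of its most inducible targets. It was at or near the detection limit in these cells. Probe 1, at chr1:30259728-30259787 on the plus strand (ENSCAFT00000000421), was well above background on 3 of 3 arrays of cells alone and 2 of 3 mixed arrays. Its intensities were 21.5, 45.1 and 32.3 in cells alone and 31.5, 13.99 and 20.2 in mixed culture, while on the 6 arrays the dimmest probes counted as well above background had intensities of 9.15 to 14.6. On the log2 scale it read -4.85, -3.95 and -4.32 in cells alone and -4.33, -5.54 and -4.87 in mixed culture. The groups overlapped, and mixed replicate 2 was the lowest and the one not well above background. The difference was -0.54 (SE 0.345, 95% interval -1.36 to 0.29, limma adjusted p = 0.331). It was -0.09 with normexp background correction. With single arrays left out it ran from -0.83 without mixed replicate 1 to -0.23 without mixed replicate 2. Its size thus rested on the handling of dim signal and on single arrays. It entered the test through the arrays of cells alone. Probe 2, at chr1:30260949-30261008, did not reach the level called well above background on any array (0 of 6) and was not tested, with intensities of 3.15, 6.49 and 2.19 in cells alone and 3.38, 3.17 and 4.20 in mixed culture.

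TNIP1 encodes ABIN-1, a ubiquitin-binding protein that works with A20 to limit NF-κB signalling, and is also induced by it. It was lower in mixed culture at the one probe that passed the test. The 3 probes are shown because they lie along one transcript, ENSCAFT00000028510, on the plus strand of chromosome 4 and did not give the same result. Probe 1 (chr4:58171886-58173092) and probe 2 (chr4:58195597-58196125) have 60 bases each that span 1207 and 529 bases of the genome, so both join sequence that is apart in the genome. Probe 3 lies at chr4:58200080-58200139 without a gap, and the first 30 of its 60 bases are printed.
TNIP1 probe 1: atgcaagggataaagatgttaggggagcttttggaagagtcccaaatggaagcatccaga
TNIP1 probe 2: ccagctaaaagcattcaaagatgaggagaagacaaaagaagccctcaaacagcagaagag
TNIP1 probe 3: gcccagaataaggtggctggctatgcctgg

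TNIP1 probe 3 read 5.18, 5.14 and 5.22 in cells alone and 4.90, 4.88 and 4.75 in mixed culture. All 3 mixed arrays lay below all 3 arrays of cells alone, and the gap between the groups was wider than the spread within either. The difference was -0.33 (SE 0.0736, 95% interval -0.51 to -0.16), a ratio of 0.793, and was called with an adjusted p of 0.0379 (limma). The pairs of the same replicate number differed by -0.28, -0.26 and -0.46. With the replicate number as a block the difference was the same and the call was lost (limma adjusted p = 0.0609). The call was also lost, with the difference still below 0, under quantile normalization (-0.27, adjusted p = 0.0553), under scaling to the spike-in controls (-0.50, adjusted p = 0.0578), with no filter on dim probes (adjusted p = 0.133) and in the methods' t-test (adjusted p = 0.0555). Of the 6 arrays, leaving out alone replicate 1 kept the call (limma adjusted p = 0.0311), and leaving out any of the other 5 lost it (adjusted p = 0.0593 to 0.145), at differences of -0.36 to -0.29. Without alone replicates 2 and 3 and mixed replicates 1, 2 and 3, the calls over all tested probes were 24, 7, 2009, 9 and 12. With no filter they were 12.

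TNIP1 probe 2 read -2.12, -1.93 and -1.88 in cells alone and -2.17, -2.48 and -2.41 in mixed culture. The groups did not overlap, with mixed replicate 1 just below alone replicate 1. The difference was -0.38 (SE 0.111, 95% interval -0.65 to -0.11), with an adjusted p of 0.0752 (limma), not past the threshold. Without alone replicate 1 it was -0.45 and called (limma adjusted p = 0.0379), in a fit that called 3838 of all 27757 tested probes lower. TNIP1 probe 1 read -4.33, -4.00 and -3.75 in cells alone and -3.85, -4.32 and -4.04 in mixed culture. The groups overlapped fully. The difference was -0.04 (95% interval -0.47 to 0.39, limma adjusted p = 0.895), and its sign turned under normexp and without alone replicate 3 or mixed replicate 2. The interval of probe 1 includes the difference measured at probe 3, so the probes were not shown to differ from each other, and whether they report different transcript forms was not tested.

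**Figure D3:**
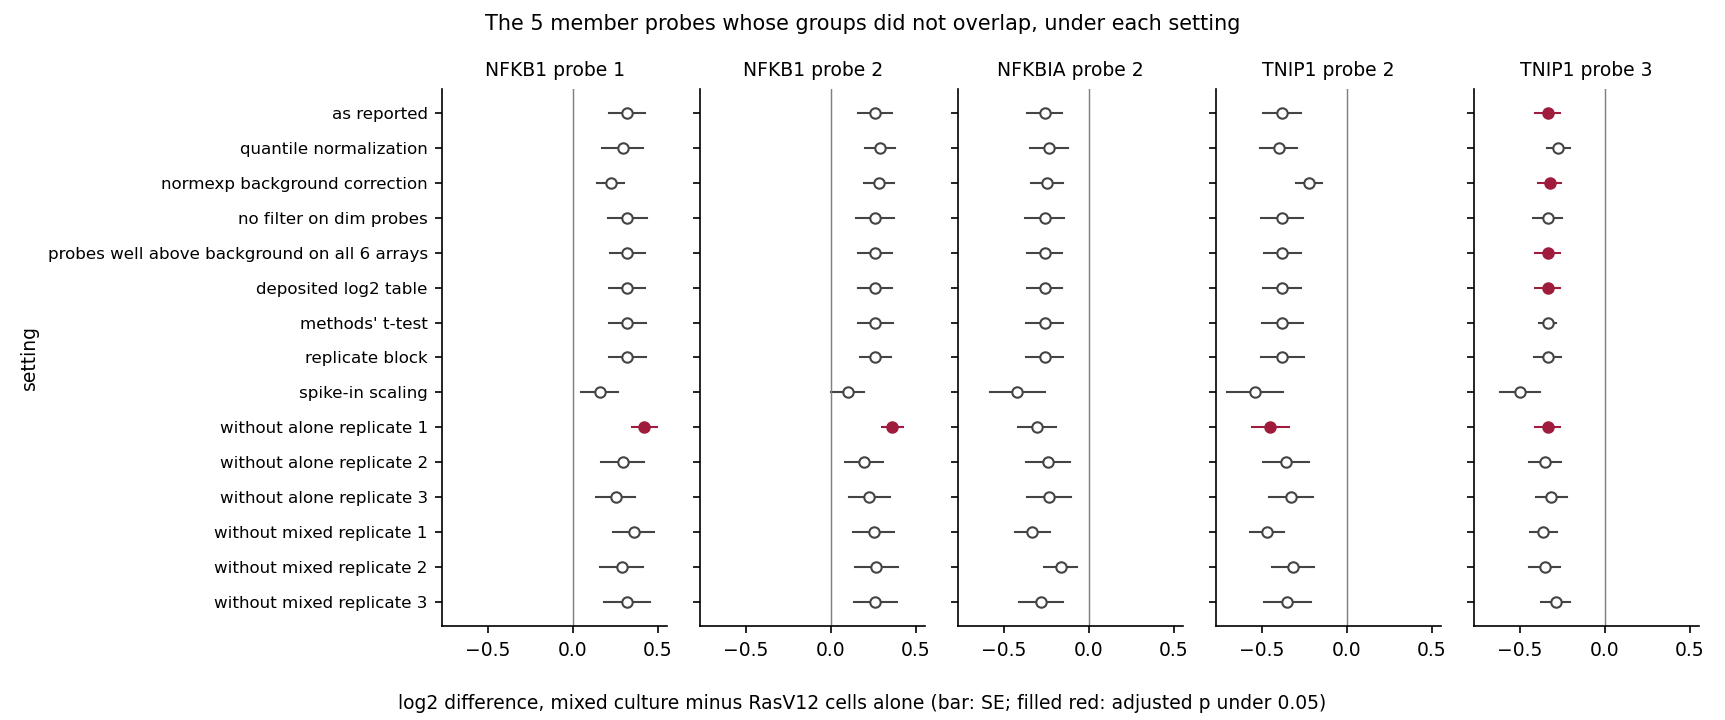
Log2 difference, mixed culture minus RasV12 cells alone (horizontal axes), of the 5 probes whose groups did not overlap, as reported and under 14 other settings (vertical axis). Bars are SEs and filled red points have an adjusted p under 0.05. NFKB1 stayed above 0 and NFKBIA probe 2 and TNIP1 probes 2 and 3 below 0 in all settings shown. TNIP1 probe 3 was called as reported and in 4 of the others, 1 of which, the deposited table, holds nearly the same values. Without alone replicate 1, a fit that called 7335 of all 27757 tested probes, both NFKB1 probes and TNIP1 probe 2 were called too.

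The other genes of the pathway were read with 1 probe per gene, the brightest tested one. Of 90 genes in 5 lists, 61 could be tested, of which 5 were called higher and 5 lower by limma. Among those called lower, IKBKG entered the test only through the arrays of cells alone and was at -0.12 under normexp. With no filter on dim probes, or without alone replicate 2, alone replicate 3, mixed replicate 2 or mixed replicate 3, none of the other pathway genes was called (0 higher and 0 lower), nor was any further probe of the genes named below. In these fits only 12, 24, 7, 9 and 12 of all tested probes were called, in that order. Over all 19628 tested genes, 5.62% were called higher and 5.29% lower. The median difference of the 61 genes was -0.06, against 0.009 over all tested genes.

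None of the 4 other IκB family genes was called (0 higher and 0 lower by limma, median 0.02). NFKBIB, the IκBβ gene, differed by -0.07 (limma adjusted p = 0.546). BCL3, a nuclear IκB protein that binds p50 and p52 dimers, differed by 0.11 (limma adjusted p = 0.498), and by -0.05 under spike-in scaling.

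Of 15 genes of the IKK complex and its upstream kinases, 11 could be tested, with 1 called higher and 1 lower (median -0.03). Over all tested genes, 5.62% were called higher and 5.29% lower. IKBKG, which encodes the regulatory subunit NEMO, read -4.40, -4.31 and -4.20 in cells alone and -5.26, -5.12 and -4.65 in mixed culture. All mixed arrays lay below all arrays of cells alone, and mixed replicate 1 was not well above background, so that this probe entered the test through the arrays of cells alone. The difference was -0.71 (SE 0.162, limma adjusted p = 0.0417). It was -0.12 under normexp (adjusted p = 0.342), and leaving out any array other than alone replicate 1 lost the call (-0.89 to -0.58, adjusted p up to 0.142).

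CHUK, which encodes the catalytic subunit IKKα, has 4 tested probes, which differed by -0.15, -0.46, -0.51 and -0.25. The third was called (limma adjusted p = 0.0471), the brightest one, the second, was not (limma adjusted p = 0.0696), and with the replicate block none was (adjusted p = 0.0642 at the third). Without alone replicate 1 the second probe was called as well, at -0.57 (limma adjusted p = 0.0183), in a fit that called 3838 of all 27757 tested probes lower. IKBKB, the gene of the other catalytic subunit IKKβ, differed by -0.08 and -0.04 at its 2 probes (limma adjusted p = 0.701 and 0.764). TBK1, an IKK-related kinase that acts in innate sensing, differed by 0.21 and 0.25 (limma adjusted p = 0.233 and 0.116). TAB3, an adaptor that brings the kinase TAK1 to ubiquitin chains, was higher by 0.48 at 1 of 2 probes (limma adjusted p = 0.0424), a call lost with the replicate block (adjusted p = 0.0609) and under spike-in scaling (0.32, adjusted p = 0.192), with the other probe at 0.14 (adjusted p = 0.367).

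Of 22 adaptors and genes of the ubiquitin machinery, 18 could be tested, with 2 called higher and 1 lower (median -0.06), where 5.62% and 5.29% of all tested genes were. TNIP2, which encodes ABIN-2, a relative of the TNIP1 product, went the other way from TNIP1. It read -0.88, -1.46 and -1.51 in cells alone and -0.36, -0.52 and -0.53 in mixed culture. All mixed arrays were above all arrays of cells alone, of which replicate 1 was the highest. The difference was 0.81 (SE 0.174, limma adjusted p = 0.0364), and it was called in 7 of the 14 other settings, the replicate block (adjusted p = 0.0351) and spike-in scaling (adjusted p = 0.0445) among them. The methods' t-test (adjusted p = 0.112) and the fit without mixed replicate 1 (adjusted p = 0.0899) did not call it. The deposited table, 1 of the settings counted here and below, shares 2977 of the 2978 calls and is not a separate check. RBCK1, a component of the enzyme complex that builds linear ubiquitin chains, was higher by 0.55 at its brighter probe (limma adjusted p = 0.0402) and by 0.35 at the other (adjusted p = 0.0583), which missed the threshold. The brighter probe was called in 6 of the 14 other settings and not under spike-in scaling (0.38, adjusted p = 0.0702). TRADD, an adaptor of the tumour necrosis factor receptor, was lower by -0.38 (limma adjusted p = 0.0369), a call that held in 5 of the 14 other settings. It was lost with the replicate block (adjusted p = 0.0631), under spike-in scaling (adjusted p = 0.0745) and in the methods' t-test (adjusted p = 0.0702).

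BIRC3, which encodes the ubiquitin ligase cIAP2 and is a common NF-κB target, differed by -0.45 at its tested probe (limma adjusted p = 0.0837) and was called lower with the replicate block (adjusted p = 0.0456). It read -0.54, -0.42 and -0.32 in cells alone and -1.14, -0.87 and -0.62 in mixed culture, without overlap. CYLD, a deubiquitinase that restrains the pathway, differed by -0.06 (limma adjusted p = 0.573).

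Receptors and ligands gave few measurable genes. Of 19 genes, 7 could be tested and 0 were called by limma in either direction (median 0.02). IL1A, IL1B, IL1R1, IL18R1, TNFSF11, TNFRSF11A and CD40LG were not well above background on any array.

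Among 30 NF-κB target genes, 21 could be tested, with 2 called higher and 3 lower and a median of -0.16. Over all tested genes, 5.62% were called higher and 5.29% lower, with a median of 0.009. IL6, CSF3, SELE, LCN2 and PTX3 were not well above background on any array. CCL20, a chemokine that epithelia release on NF-κB activation, read -5.20, -5.27 and -5.89 in cells alone and -4.40, -2.96 and -1.99 in mixed culture. The mixed arrays were higher and far more spread than those of cells alone. CCL20 was well above background on all 6 arrays, but in cells alone it was dimmer than TNFAIP3 probe 1 (-4.85, -3.95 and -4.32). Its difference is thus taken over a level near the detection limit. The difference was 2.34 (SE 0.575, limma adjusted p = 0.0485), and the call was lost with the replicate block (adjusted p = 0.0679) and under quantile normalization (adjusted p = 0.0519). It was 0.97 under normexp (adjusted p = 0.0688), and with single arrays left out it ran from 1.78 to 2.98, called without mixed replicate 1 (adjusted p = 0.0208) and not without any of the other 5.

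BTG2, an antiproliferative gene that p53 also induces, was higher by 0.89 and 0.88 at its 2 probes (limma adjusted p = 0.0160 and 0.0135). ICAM1, an adhesion molecule and classical target, was lower by -0.36 and -0.59 at its 2 probes (limma adjusted p = 0.0307 and 0.0217). PLAU, which encodes the protease urokinase and also answers to Ras signalling, was lower by -0.74 and -0.84 (limma adjusted p = 0.0236 and 0.0193). At BTG2, ICAM1 and PLAU both probes of the gene were thus called in one direction, and all 6 calls held with the replicate block (adjusted p = 0.0313 to 0.0476). Spike-in scaling called both BTG2 probes and PLAU probe 2, and not the ICAM1 probes (adjusted p = 0.0718 and 0.0540) or PLAU probe 1 (adjusted p = 0.0511). The methods' t-test called BTG2 probe 2 and ICAM1 probe 1 and not the other 4 (adjusted p = 0.0540 to 0.0753), and quantile normalization did not call ICAM1 probe 1 (adjusted p = 0.0509).

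NOS2, the inducible nitric oxide synthase, was lower by -0.28 at 1 of 2 tested probes (limma adjusted p = 0.0474), a call lost with the replicate block (adjusted p = 0.0719) and under normexp (-0.13, adjusted p = 0.145). CFLAR, an inhibitor of caspase-8, was lower by -0.72 at its dimmer probe (limma adjusted p = 0.0369), with the brighter one at -0.29 (limma adjusted p = 0.333). The call held in 6 of the 14 other settings, and not in the methods' t-test (adjusted p = 0.111) or under spike-in scaling (adjusted p = 0.0677). SDC4, a cell-surface proteoglycan, was lower by -0.44 at its dimmer probe (limma adjusted p = 0.0364), which the replicate block did not call (adjusted p = 0.0626), with the brighter one at -0.33 (limma adjusted p = 0.0716). The targets that passed the test thus went in both directions.

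**Figure D4:**
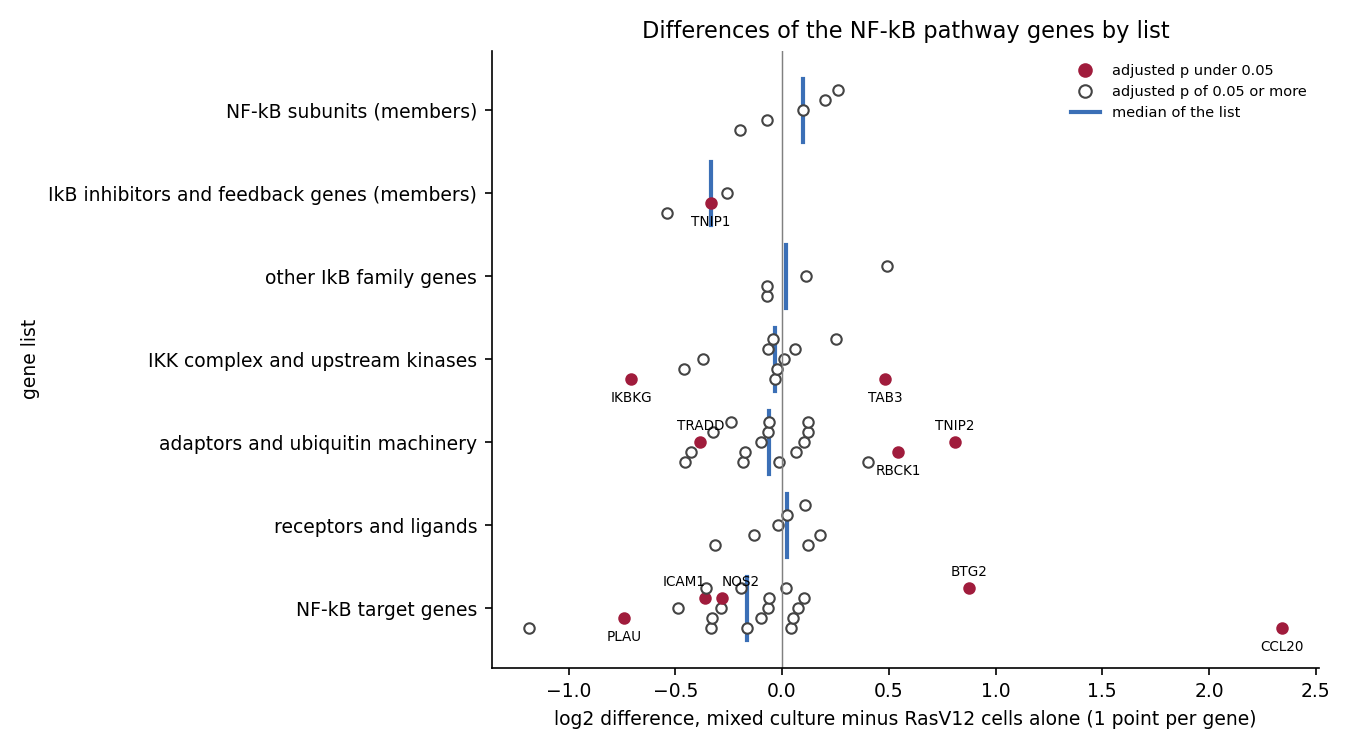
Log2 difference, mixed culture minus RasV12 cells alone (horizontal axis), for the tested genes of each list (vertical axis), 1 point per gene at its brightest tested probe. Filled red points, with names, have an adjusted p under 0.05, and vertical bars are the medians of the lists, 0.10 for the subunits, -0.33 for the 3 inhibitors and feedback genes and -0.16 for the targets. Over all tested genes the median was 0.009. The -0.33 includes TNFAIP3, which was dim and entered the test through the arrays of cells alone, as did IKBKG. CCL20, at 2.34, stands furthest from 0, over a level in cells alone that is near the detection limit.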

How the data were processed

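The authors deposited the scanner software's output (Agilent Feature Extraction 10.10.1.1) with a processed intensity per spot, corrected for background, and a table of log2 values, which equals log2 intensity minus about the 75th percentile of each array over 26529 probes. Probe coordinates are those of the files (canFam3). From the deposited intensities, control spots and spots with outlier flags were left out, the spots of each probe averaged, and the 75th percentile of the array subtracted on the log2 scale. Cultures were compared with limma 3.58.1 (R 4.3.3), tested on simulated data, over 26535 probes, each well above background throughout one group or both. With 3 arrays in each group the number of arrays limits the precision. The sources used here do not say what a replicate is, so p-values may measure technical spread.

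The members and gene lists were chosen with earlier results of these data known. All member probes are named, together with list genes with a called probe and 8 fixed genes (CHUK, IKBKB, IKBKG, NFKBIB, BCL3, TBK1, CYLD and BIRC3). IKBKG and NFKBID were matched by description, and IL8 was dropped as an older name of CXCL8. After removing group means, arrays of the same replicate number correlated at 0.162 to 0.349 over 26529 probes and those of different numbers at -0.329 to 0.238. By a limit of 0.1 the numbers were read as pairs, but the 2 ranges overlap. Alone replicate 2 correlated more with mixed replicate 3 (0.238) than with mixed replicate 2 (0.162), so the pairing is uncertain. The number is also the position on the slide. Files were handled in Python 3.11.15 (numpy 2.4.6, pandas 2.3.3) and plots made in matplotlib 3.10.9. Alternatives were quantile normalization, normexp (offset 50), no filter, only probes well above background on all 6 arrays, the deposited table, the methods' t-test, a replicate block, spike-in scaling and leaving out each array.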

Additional observations from a re-analysis of the deposited data

How the results depend on the processing

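A slide block could not be fitted, because all arrays of a group shared a slide. The members called lower went from 1 to 0 under quantile normalization, no filter, the methods' t-test, the replicate block and spike-in scaling, and with single arrays left out they ran from 0 to 2. Members called higher were 0 in all settings but the removal of alone replicate 1, and ran from 0 to 3. The called probes over the whole array went from 2978 to 12 with no filter, 826 with the t-test, 949 under spike-in scaling and 7 to 7335 without single arrays, and were 2825 with the replicate block. Spike-in scaling put the median of all tested probes at -0.165 in place of -0.00371 and left 287 higher and 662 lower. The 5 other pathway genes called higher became 0 with no filter, 1 with the t-test, 3 under quantile normalization, 2 under spike-in scaling and 4 with the replicate block, and 0 to 5 without single arrays. The 5 called lower became 0, 2, 5, 0 and 5 in those settings, and 0 to 14 without single arrays. Among these 5, IKBKG entered the test only through the arrays of cells alone. Signs turned for RELB (-0.0629, spike-in scaling), REL (0.0244, normexp), BCL3 (-0.0515, spike-in scaling), TNIP1 probe 1 (0.0165 under normexp, and -0.20 to 0.0955 without single arrays, above 0 without alone replicate 3 or mixed replicate 2) and the brighter IKBKB probe (-0.12 to 0.00644 without single arrays, above 0 without alone replicate 2). These differences were not called in any setting, and the cause of the turns was not tested. Among members the replicate block changed the call of TNIP1 probe 3 and no other. TNFAIP3, on the edge of detection, is limited by signal over background.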
